A study of Mus musculus with 6 samples.

Results

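The mitochondrial ribosomal protein genes are the nuclear genes for the proteins of the ribosome inside mitochondria. They were taken as every gene symbol that starts with Mrpl or Mrps followed by a digit, without pseudogene names ending in -ps, which gave 78 of the 26264 genes in the expression table. Of these, 49 carry the name of a large subunit protein (Mrpl) and 29 that of a small subunit protein (Mrps). All 78 were above 0 in every library and all 78 passed the filter of a mean of at least 1 TPM (a level corrected for transcript length and scaled to the same total in every library), so that all 78 were tested among 13084 genes.

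The mitochondrial ribosome is made of RNAs encoded by mitochondrial DNA and of proteins encoded in the nucleus, made in the cytosol and imported. It translates the few mRNAs of mitochondrial DNA, whose products are core subunits of the respiratory chain and of ATP synthase. Part of its proteins have counterparts in bacterial ribosomes, and others were added in the mitochondrial lineage. In the brain, astrocytes and neurons both depend on it for their respiratory chain.

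The libraries hold mRNA that was bound to ribosomes in mouse brain. The mice carried Gfap-Cre and RiboTag: Cre driven by Gfap, an astrocyte gene, switches on an HA-tagged ribosomal protein, and anti-HA antibody then recovers the tagged ribosomes with their mRNA. Mice of the PLX5622 group ate food with 1200 ppm of PLX5622, which blocks the Csf1r receptor on which microglia depend, for 1 month. Mice of the control group ate a control diet for the same time. Both groups carried both alleles, each had 3 libraries that the labels call biological replicates, and age is not given. Because the tagged ribosomes are cytosolic, the data follow the mRNAs of mitochondrial ribosomal proteins on cytosolic ribosomes and not the mitochondrial ribosomes themselves. The libraries were not stranded, so reads of overlapping genes on opposite strands cannot be told apart. In such bulk samples, fewer cells of a type and less RNA per cell cannot be told apart either.

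The labels give the captured cells as astrocytes with some neurons and oligodendrocytes, and markers of all 3 types were detected, which does not show that those cells carried the tag. The 14 astrocyte markers summed to 40780 to 45275 TPM in PLX5622 libraries and 25596 to 35969 TPM in control libraries, and the 12 neuron markers to 1454 to 2208 TPM in PLX5622 libraries and 2297 to 2796 TPM in control libraries. The 9 oligodendrocyte markers summed to 2980 to 4001 TPM in PLX5622 libraries and 3350 to 4361 TPM in control libraries. Control 3 stood against its label in transcripts of microglia, the cells that the diet depletes. PLX5622 3 lay above the other PLX5622 libraries and below control 1 and control 2. The microglia markers summed to 39.9, 28.6 and 56.4 TPM in PLX5622 libraries 1 to 3, against 139, 85.9 and 37.0 TPM in control libraries 1 to 3. Csf1r, the drug's target and a microglial gene, had 0.811, 0.0208 and 2.05 TPM in PLX5622 libraries 1 to 3, against 4.33, 4.27 and 0.118 TPM in control libraries 1 to 3. The authors' deposited log2 fold changes also differed from those of the labelled columns. Over 13083 genes the median absolute difference between them was 0.189 with the columns as labelled and 0.0468 with control 3 and PLX5622 3 exchanged. Libraries were kept under their labels here, the counts and medians of the members and of the main lists and genes are given also without these 2 libraries, and the authors' table is given apart.

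Most members were expressed above the typical gene. Their mean over the 6 libraries ran from 9.13 TPM (Mrpl1) to 198 TPM (Mrpl27), a range of 21.6-fold, with a median of 62.1 TPM against 15.3 TPM for all genes tested, and 76 of 78 lay above that value. The median was 64.5 TPM for the 49 Mrpl genes and 60.3 TPM for the 29 Mrps genes. A mean of at least 100 TPM was reached by 16 members, and 2 members, Mrpl1 and Mrpl19, stayed under 20 TPM. Across members, Spearman's rho of mean TPM with the exon length in the GENCODE M21 annotation was -0.41 over the 78 genes, as a description, since TPM divides by a length. The baseMean values of the authors' deposited table, means of normalized counts, ran from 535 to 4153 for the 78 members, with a median of 1695.

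**Figure D1:**
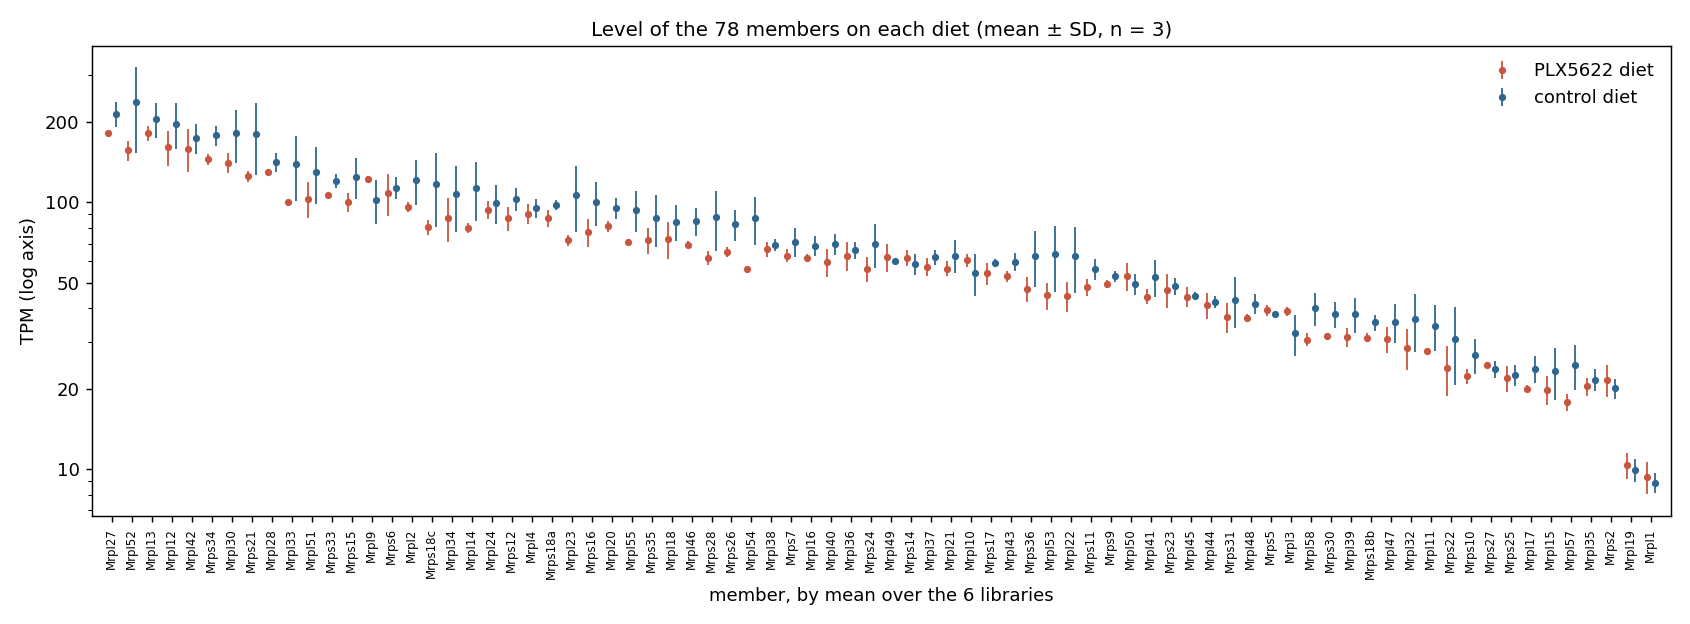
Level of each of the 78 members in TPM on a log axis, as mean ± SD of the 3 PLX5622 libraries (red) and the 3 control libraries (blue), ordered by the mean over all 6. The ends, Mrpl27 and Mrpl1, are 21.6-fold apart, and the widest step lies between Mrps2 (20.8 TPM) and Mrpl19 (10.1 TPM).

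Mrpl27, the counterpart of the bacterial protein bL27 that lies near the peptidyl transferase centre, had the highest mean. It had 185, 181 and 178 TPM in PLX5622 libraries 1 to 3, against 234, 189 and 219.5 TPM in control libraries 1 to 3. Mrpl52, a mitochondria-specific protein, had 153, 171 and 145 TPM in PLX5622 libraries 1 to 3, against 322, 155 and 232 TPM in control libraries 1 to 3. Mrpl52 was higher than Mrpl27 in control 1 and control 3 and lower in the other 4 libraries, and its control values spread the most of these genes. Mrpl13, the counterpart of the bacterial protein uL13, had 170.1, 193 and 181 TPM in PLX5622 libraries 1 to 3, against 235, 173 and 206 TPM in control libraries 1 to 3. Mrpl12, which forms the mobile stalk that recruits translation factors, had 147, 188 and 146 TPM in PLX5622 libraries 1 to 3, against 232, 156 and 203 TPM in control libraries 1 to 3. Mrpl42 had 137, 192 and 147 TPM in PLX5622 libraries 1 to 3, against 193, 149 and 181 TPM in control libraries 1 to 3. These 5 genes overlap in their ranges across libraries. Compared within the same library, Mrpl13 was above Mrpl12 and above Mrpl42 in every library. The other pairs of these 5 genes changed order between libraries. In Mrpl13, Mrpl12 and Mrpl42, PLX5622 2 was level with or above control 2, so the diets overlap.

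At the other end, Mrpl1, the counterpart of uL1 at the stalk where empty tRNA leaves, had 7.88, 10.3 and 9.86 TPM in PLX5622 libraries 1 to 3, against 8.69, 8.23 and 9.78 TPM in control libraries 1 to 3. Mrpl19 had 9.82, 11.6 and 9.57 TPM in PLX5622 libraries 1 to 3, against 8.86, 10.8 and 10.1 TPM in control libraries 1 to 3. These 2 genes overlap each other and overlap between the diets. Mrps2 had 18.9, 24.7 and 21.2 TPM in PLX5622 libraries 1 to 3, against 18.5, 19.8 and 22.0 TPM in control libraries 1 to 3. Mrpl35 had 18.9, 22.0 and 20.3 TPM in PLX5622 libraries 1 to 3, against 23.3, 19.3 and 22.2 TPM in control libraries 1 to 3. Mrpl57 had 17.2, 19.3 and 17 TPM in PLX5622 libraries 1 to 3, against 28.8, 19.4 and 25.2 TPM in control libraries 1 to 3. Mrpl57 is the only one of these 5 whose PLX5622 values all lay below its control values, PLX5622 2 and control 2 being nearly level.

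Promoter sequence was read for the members because a few nuclear factors are known to serve many genes of mitochondrial proteins: NRF1, the ETS-type factor GABP and YY1. RefSeq windows of GRCm38.p6, 250 bases before to 50 after the start, matched 69 of the 78 members (75 windows). The NRF1 motif, GCGCA then any 1 base then GCGC, was found on either strand in 13 of 69 members (18.8%), against 11.4% of 10431 tested genes and 5.19% of all 27025 genes in the promoter table. The ETS motif CCGGAAGT was found in 12 of 69 (17.4%), against 8.81% of tested and 4.31% of all genes. The YY1 motif AAGATGGC was found in 12 of 69 (17.4%), against 5.18% and 3.19%. TATAAA, the core of the TATA box, was found in 5 of 69 (7.25%), against 8.47% and 15.7%. No test was made of these shares. The sequences below are stretches of 140 bases that end 15 bases after the start, all on the plus strand, of members that hold an NRF1 or ETS match near the start. Capitals mark the matches. Mrps26 (chr2:130563632-130563771) was the 1 member with both motifs. Mrpl12 (chr11:120484512-120484651), Mrpl45 (chr11:97315591-97315730) and Mrpl57 (chr14:57826114-57826253) are described by their values in the text, and Mrpl9 (chr3:94443211-94443350) and Mrpl3 (chr9:105053143-105053282) were the 2 members above all controls on PLX5622.
Mrps26: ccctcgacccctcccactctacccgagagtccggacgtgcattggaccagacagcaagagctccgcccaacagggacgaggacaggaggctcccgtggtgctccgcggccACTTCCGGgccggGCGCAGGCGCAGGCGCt
Mrpl12: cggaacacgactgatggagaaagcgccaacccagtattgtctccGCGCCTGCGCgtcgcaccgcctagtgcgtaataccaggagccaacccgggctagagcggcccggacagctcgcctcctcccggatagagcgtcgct
Mrpl45: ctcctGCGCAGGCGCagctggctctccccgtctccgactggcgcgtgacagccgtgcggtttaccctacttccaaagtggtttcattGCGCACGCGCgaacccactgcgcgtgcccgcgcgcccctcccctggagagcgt
Mrpl57: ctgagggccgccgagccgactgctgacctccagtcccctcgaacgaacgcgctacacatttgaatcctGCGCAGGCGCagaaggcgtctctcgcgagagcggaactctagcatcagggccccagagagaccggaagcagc
Mrpl9: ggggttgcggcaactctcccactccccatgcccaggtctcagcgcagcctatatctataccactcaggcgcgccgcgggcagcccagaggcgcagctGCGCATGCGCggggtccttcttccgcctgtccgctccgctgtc
Mrpl3: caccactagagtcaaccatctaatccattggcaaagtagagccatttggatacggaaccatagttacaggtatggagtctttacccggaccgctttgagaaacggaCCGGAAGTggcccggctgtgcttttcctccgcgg
In these stretches Mrps26 holds a pair of overlapping NRF1 matches beside its ETS match, and Mrpl3 holds the ETS match alone. Mrpl45 holds a pair of NRF1 matches apart from each other, and its window has a further match past the end of the stretch. A match is a description of letters and not a bound site. The 24 members with an NRF1 or ETS match had a median difference between diets of -0.28 on the log2 scale, and the 45 without had -0.18 (not tested).

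The diets were compared with limma on log2(TPM + 1), PLX5622 minus control, with Benjamini-Hochberg adjustment over all 13084 genes. No member was called at an adjusted p of 0.05, and none of the 13084 genes was either (0%). At an unadjusted p under 0.05, 16 members were lower on PLX5622, against 8.02% of all genes, and 0 were higher, against 14.7%. The difference was negative in 67 of 78 members, against 38.9% of all genes, with a median of -0.21 against 0.089 over all genes. With median-ratio size factors on the TPM values, 73 members were negative, against 6349 of the 13084 genes, with a median of -0.30 against 0.011. Intervals at 95% ran from -1.05 to 0.62 and included 0 for 62 of 78 members. The 3 PLX5622 values lay below all 3 control values in 18 members (9.39% of all genes) and above them in 2 (19.4%). By name, the 49 Mrpl genes had a median of -0.21 and the 29 Mrps genes of -0.22.

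The count rests on single libraries. Without control 2, 3754 genes were called, 8.82% of genes lower and 19.9% higher, and 30 members were among them, 29 lower and Mrpl9 higher, with a member median of -0.32. Without control 1 the member median was -0.14, against 0.025 over all genes. The 16 members with an unadjusted p under 0.05 that were lower became 44 without control 2 (13% of all genes). They became 4 without PLX5622 1 (8.57%), 6 without PLX5622 2 (4.03%), 2 without PLX5622 3 (3.42%), 2 without control 1 (6.24%) and 2 without control 3 (3.88%). The 18 members with PLX5622 values below all control values became 56 without control 2, where 19.1% of all genes were so, and 45 without PLX5622 2, where 13.2% were. They numbered 19 without PLX5622 1 (17.2%), 20 without PLX5622 3 (10.7%), 19 without control 1 (13.3%) and 18 without control 3 (10.2%). The members above all controls numbered 3, 2 and 3 without PLX5622 1, 2 and 3 in turn (27.9%, 26% and 21.8% of all genes), and 2, 3 and 3 without control 1, 2 and 3 in turn (19.8%, 40.2% and 23.5%). Fewer libraries make such a separation easier for every gene. Without both control 3 and PLX5622 3, 14 genes were called (0.107%), 0 members were called and 0 were lower at an unadjusted p under 0.05 (1.66% of all genes). The median was then -0.16, 61 members were negative, against 36.3% of all genes, and 20 lay below all controls (11.6%) and 4 above (26.5%).

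**Figure D2:**
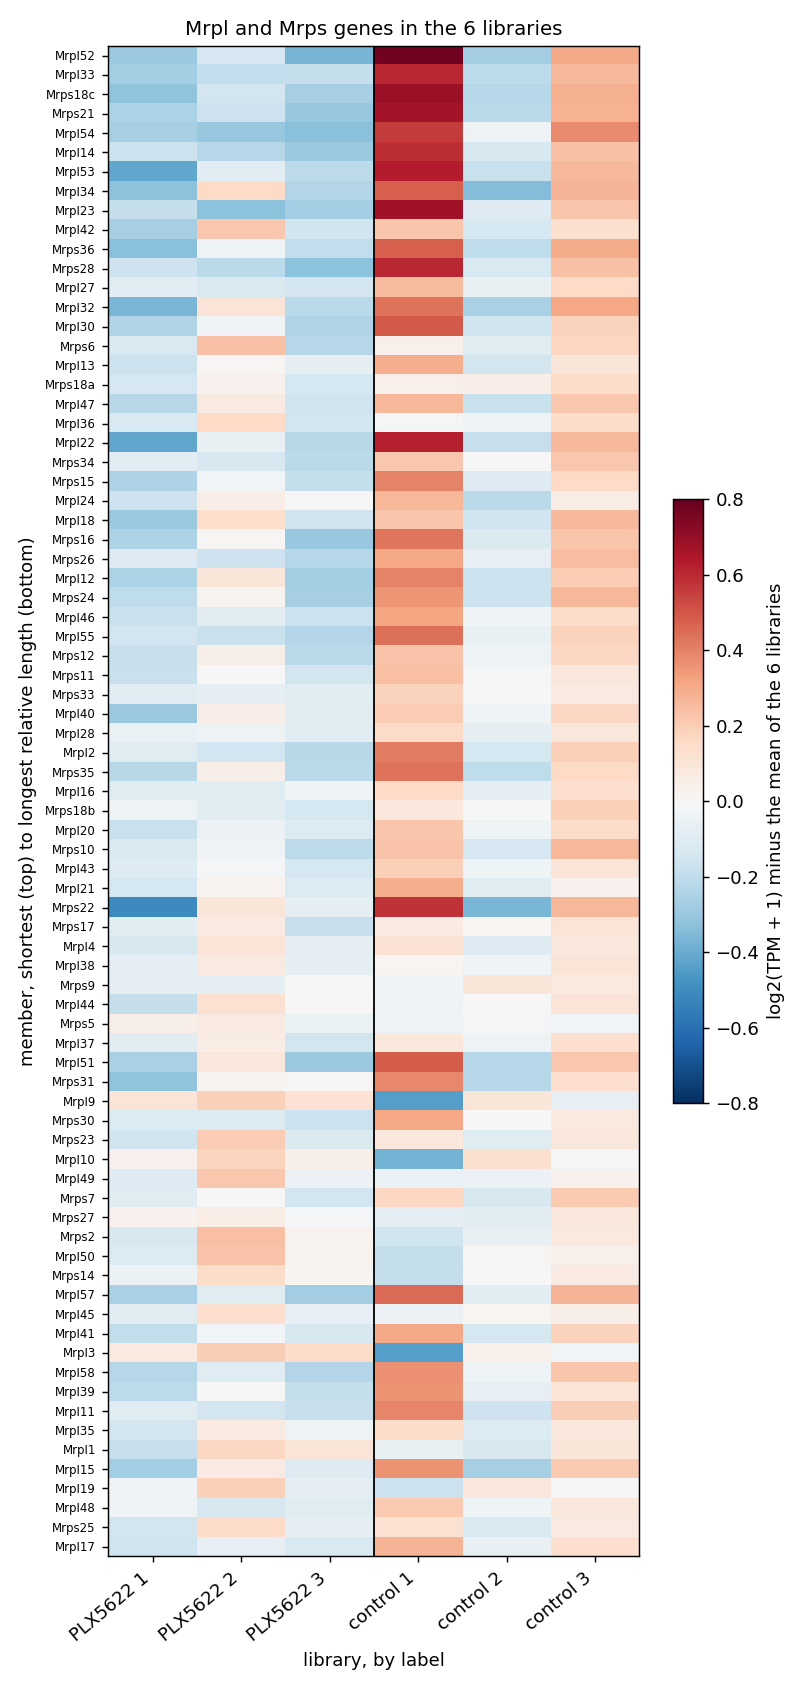
Deviation of each member (row) from its own mean over the 6 libraries, log2(TPM + 1), for PLX5622 libraries 1 to 3 (left) and control libraries 1 to 3 (right). Rows run from the shortest relative length (top) to the longest, as described with the length results. Control 1 and control 3 are above the mean for most members, and PLX5622 1 and 3 below it.

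The libraries of each diet differed among themselves. Control 1 held the highest value of 52 of the 78 members, PLX5622 2 of 16, control 3 of 9 and control 2 of 1. The lowest value was in PLX5622 1 for 32 members, in PLX5622 3 for 32, in control 1 for 7, in PLX5622 2 for 4 and in control 2 for 3. Control 1 and control 3 were the 2 highest libraries of 55 of 78 members, against 15.9% of all genes. Summed over the members, PLX5622 libraries 1 to 3 had 5013, 5645 and 5043 TPM, and control libraries 1 to 3 had 7023, 5264 and 6360 TPM. The sums averaged 5234 ± 357 TPM on PLX5622 and 6216 ± 889 TPM on the control diet (SD, n = 3 each), and control 2 lay below PLX5622 2. The highest library was 1.41-fold above the lowest for the median member and 2.22-fold for Mrpl52; 48 members stayed under 1.5-fold, against 41.7% of all genes.

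Of the large subunit, Mrpl54, a mitochondria-specific protein, had the smallest p. It had 57.6, 56.2 and 54.9 TPM in PLX5622 libraries 1 to 3, against 103, 67.6 and 90.7 TPM in control libraries 1 to 3. All 3 PLX5622 values lay below all control values, with control 2 nearest to them. The difference was -0.60 ± 0.16 (SE) with an interval of -0.96 to -0.25 (limma, unadjusted p = 0.0039, Benjamini-Hochberg adjusted p = 0.205). Mrpl23, the counterpart of uL23 at the rim of the exit tunnel, had 75.6, 68.6 and 71.4 TPM in PLX5622 libraries 1 to 3, against 138, 80.3 and 101 TPM in control libraries 1 to 3, a difference of -0.53 ± 0.18 (SE). Mrpl58, a peptidyl-tRNA hydrolase known for freeing stalled mitochondrial ribosomes and built into the large subunit, had 29.6, 32.5 and 29.4 TPM in PLX5622 libraries 1 to 3, against 45.2, 34.0 and 40.8 TPM in control libraries 1 to 3, a difference of -0.37 ± 0.14 (SE). Mrpl14, the counterpart of uL14 at the face that meets the small subunit, had 83.7, 80.5 and 76.5 TPM in PLX5622 libraries 1 to 3, against 143, 86.2 and 111 TPM in control libraries 1 to 3, a difference of -0.46 ± 0.17 (SE). In each of these genes the diets did not overlap, and control 2 was the control nearest to the PLX5622 libraries. Mrpl55 had 72.8, 71.4 and 68.8 TPM in PLX5622 libraries 1 to 3, against 110.4, 77.7 and 92.1 TPM in control libraries 1 to 3, a difference of -0.38 ± 0.14 (SE). In the small subunit, Mrps28 had 65.0, 62.6 and 57.8 TPM in PLX5622 libraries 1 to 3, against 111, 66.9 and 85.9 TPM in control libraries 1 to 3, a difference of -0.48 ± 0.18 (SE). All 6 genes had an adjusted p of 0.205 by limma. Without control 3 and PLX5622 3 the differences were -0.54 for Mrpl54, -0.54 for Mrpl23, -0.33 for Mrpl58, -0.43 for Mrpl14, -0.36 for Mrpl55 and -0.43 for Mrps28. Without control 1 they were -0.47 for Mrpl54, -0.32 for Mrpl23, -0.28 for Mrpl58, -0.28 for Mrpl14, -0.25 for Mrpl55 and -0.29 for Mrps28, and without control 2 -0.77 for Mrpl54, -0.71 for Mrpl23, -0.48 for Mrpl58, -0.64 for Mrpl14, -0.50 for Mrpl55 and -0.66 for Mrps28. Corrected for transcript length, as described with the length results, they were -0.24 for Mrpl54, -0.20 for Mrpl23, -0.48 for Mrpl58, -0.12 for Mrpl14, -0.17 for Mrpl55 and -0.17 for Mrps28.

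**Figure D3:**
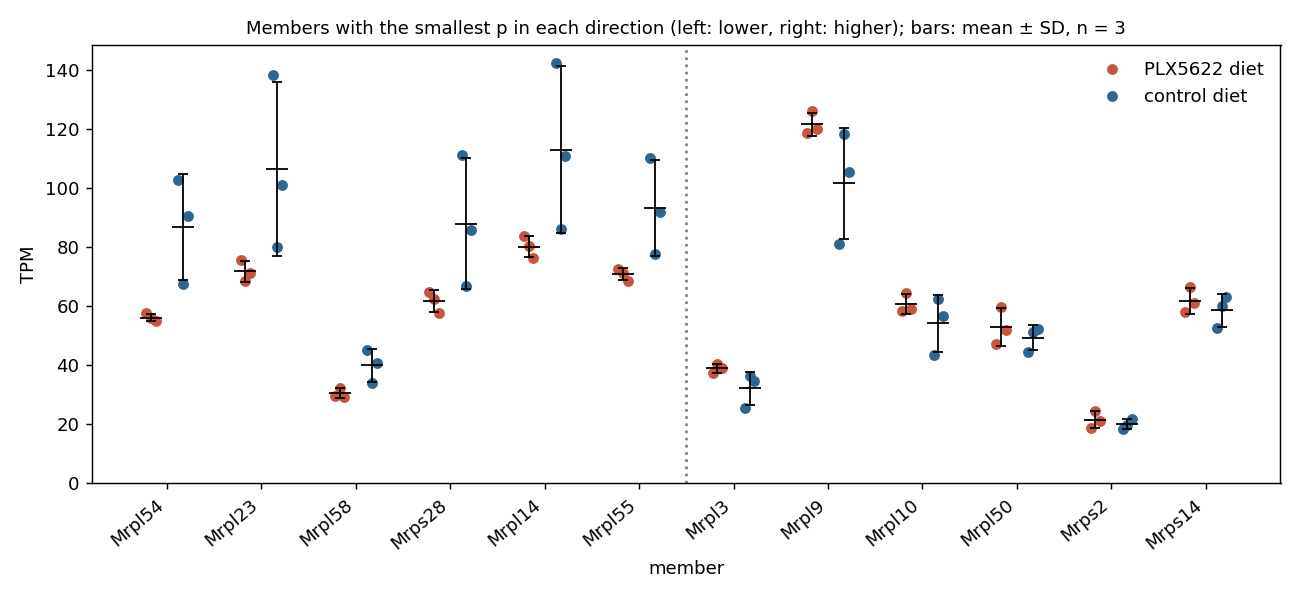
TPM of members in each library, PLX5622 libraries left and control libraries right at each gene, for the 6 lower and 6 higher genes of smallest p; bars are mean ± SD (n = 3). In the lower members control 1 and control 3 stand above control 2, and Mrpl3 and Mrpl9 have their lowest value in control 1.

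Members higher on PLX5622 were few. Mrpl3, the counterpart of uL3 near the peptidyl transferase centre, had 37.3, 40.5 and 39.2 TPM in PLX5622 libraries 1 to 3, against 25.7, 36.3 and 34.7 TPM in control libraries 1 to 3, a difference of 0.28 ± 0.15 (SE) (limma, adjusted p = 0.269). Mrpl9 had 119, 126 and 120.2 TPM in PLX5622 libraries 1 to 3, against 81.3, 118 and 106 TPM in control libraries 1 to 3, a difference of 0.27 ± 0.15 (SE) (limma, adjusted p = 0.277). In both genes the diets did not overlap and control 1 was far below the other controls. Without control 3 and PLX5622 3 the differences were 0.34 for Mrpl3 and 0.32 for Mrpl9. Without control 1 they were 0.13 for Mrpl3 and 0.12 for Mrpl9, and corrected for length 0.18 for Mrpl3 and 0.34 for Mrpl9. Mrpl10, which anchors the stalk, had 58.4, 64.7 and 59.1 TPM in PLX5622 libraries 1 to 3, against 43.7, 62.5 and 56.6 TPM in control libraries 1 to 3, a difference of 0.17 ± 0.15 (SE), which was 0.028 without control 1. Mrpl50, Mrps2 and Mrps14 had differences of 0.10, 0.094 and 0.08. In these 4 genes the diets overlapped.

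Among proteins with a set place in the ribosome, the 3 stalk genes did not share a sign, and the interval of each included 0. Mrpl11, the counterpart of uL11 at the stalk base, had 28.6, 27.6 and 26.9 TPM in PLX5622 libraries 1 to 3, against 40.5, 27.3 and 35.3 TPM in control libraries 1 to 3, a difference of -0.28 ± 0.15 (SE). Mrpl12 had a difference of -0.29 ± 0.17 (SE) and Mrpl10, given above, a positive one. Without control 1 the differences were -0.16 for Mrpl11 and -0.16 for Mrpl12, without control 2 -0.44 and -0.44, and corrected for length -0.40 and -0.067. Mrpl45, which holds the ribosome to the inner membrane at the exit tunnel, had 41.8, 48.8 and 42.3 TPM in PLX5622 libraries 1 to 3, against 42.9, 44.7 and 45.7 TPM in control libraries 1 to 3, a difference of -0.0083. The 6 exit tunnel genes had 6 of 6 negative differences with a median of -0.22, which was -0.17 without control 3 and PLX5622 3. The 6 genes of the central protuberance had 6 of 6 negative differences with a median of -0.22, which was -0.19 without those libraries. Corrected for length, 4 of 6 were negative in each list, with medians of -0.14 and -0.052. Mrps12, the counterpart of uS12 in the decoding centre, had 87.0 ± 9.0 TPM on PLX5622 and 103 ± 9.87 TPM on the control diet (SD, n = 3 each), a difference of -0.24 ± 0.13 (SE). Mrpl32, known to be cut by the mitochondrial AAA protease before it enters the ribosome, had 28.5 ± 5.0 TPM on PLX5622 and 36.4 ± 8.89 TPM on the control diet (SD, n = 3 each), a difference of -0.32 ± 0.20 (SE). Corrected for length the differences were -0.032 for Mrps12 and -0.036 for Mrpl32, and without control 1 they were -0.18 and -0.19.

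Some names do not say where the protein sits. Mrps30 and Mrps18a are proteins of the large subunit despite their names. Mrps30 had 31.5 ± 0.76 TPM on PLX5622 and 38.1 ± 4.36 TPM on the control diet (SD, n = 3 each), a difference of -0.26 ± 0.13 (SE). The Mrps18 paralogs have separate places, and Mrps18b and Mrps18c sit in the small subunit. Mrps18a had 87.2 ± 6.37 TPM on PLX5622 and 97.6 ± 4.11 TPM on the control diet (SD, n = 3 each), Mrps18b 31.1 ± 1.15 TPM on PLX5622 and 35.4 ± 2.5 TPM on the control diet (SD, n = 3 each) and Mrps18c 80.5 ± 5.06 TPM on PLX5622 and 117 ± 36.3 TPM on the control diet (SD, n = 3 each). Their differences were -0.16 for Mrps18a, -0.18 for Mrps18b and -0.49 for Mrps18c. Corrected for length they were 0.10, 0.00088 and -0.091 in the same order, so that Mrps18a and Mrps18b turned sign. Without control 1 that of Mrps18c was -0.27, and without control 3 and PLX5622 3 those of Mrps18a and Mrps18b were -0.10 and -0.10. Mrps36, known as a part of the 2-oxoglutarate dehydrogenase complex, had 47.3 ± 4.91 TPM on PLX5622 and 63.0 ± 14.8 TPM on the control diet (SD, n = 3 each), a difference of -0.38 ± 0.18 (SE), which was -0.24 without control 1 and -0.077 after the length correction. The 45 members with bacterial counterparts had a median difference of -0.21 and the 32 mitochondria-specific ones of -0.21. With control 3 and PLX5622 3 left out these medians were -0.15 and -0.20, and corrected for length -0.032 and -0.081.

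Transcript length went with these differences. A relative length was taken as the authors' deposited baseMean over mean TPM, scaled to the median tested gene. It can depart from the exon length in GENCODE M21. Mrpl33 had a relative length of 0.155 with 7326 bases of exons, and Mrpl58 one of 0.898 with 3332 bases. The members' median was 0.369, and 71 of 78 were shorter than the median tested gene. The correlation of a gene's deviation from its mean with log length over all genes was 0.377, 0.198 and 0.429 in PLX5622 libraries 1 to 3, and -0.494, 0.307 and -0.467 in control libraries 1 to 3. Control 1 and control 3 thus had higher values in short genes, and control 2 went with the PLX5622 libraries. The 26 shortest members (relative length 0.137 to 0.316) had a median difference of -0.33 with 26 of 26 negative. The 26 of middle length had a median of -0.20 with 25 negative, and the 26 longest (0.501 to 2.21) a median of -0.064 with 16 negative. Spearman's rho of difference with length was 0.589 over the members and 0.480 over all genes, as a description.

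After a loess correction for length within each library, the member median was -0.053 against -0.00027 over all genes, and 48 members were negative, against 50.1% of all genes. At an unadjusted p under 0.05, 5 members were lower (11.3% of all genes) and 1 was higher (11.6%), and 0 members and 0% of all genes were called. The PLX5622 values lay below all controls in 8 members (13.6% of all genes) and above them in 5 (15.3%). The sign turned in 23 members. The 26 shortest, middle and longest members then had medians of -0.053, -0.019 and -0.15. The largest corrected differences were those of Mrpl57 (-0.48), Mrpl58 (-0.48) and Mrpl17 (-0.46), and the largest positive one that of Mrpl9 (0.34). For Mrpl54 it was -0.24. The part of length in the differences was not tested beyond this correction.

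**Figure D4:**
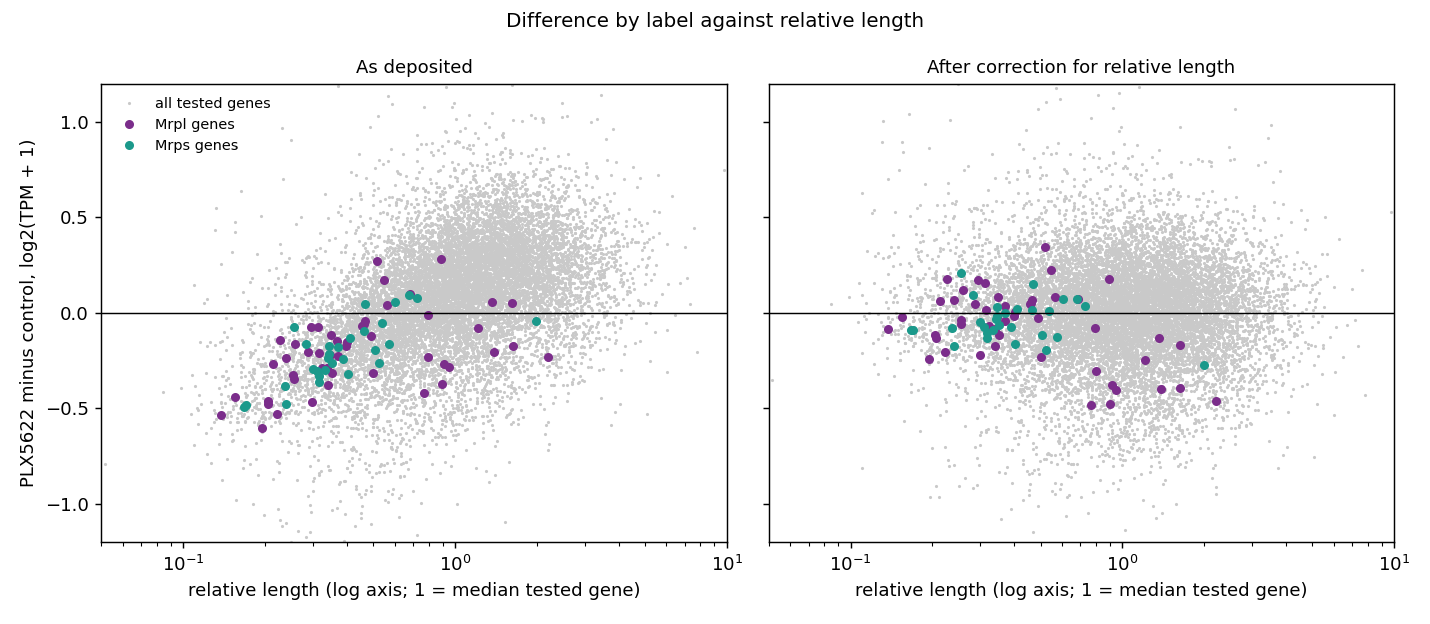
Difference between diets by label (PLX5622 minus control, log2) against relative length on a log axis. It was taken from the deposited TPM values without correction (left) and after the length correction (right), and not from the authors' fold changes. Mrpl genes are in purple, Mrps genes in green and all tested genes in grey (genes outside the axes are not drawn). The 26 shortest members all lie below 0 on the left and around 0 on the right.

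The members' neighbours in the pathway were measured on lists. Of the 5 mitoribosomal proteins under other names, the median was -0.24. Aurkaip1 had 178, 178 and 167 TPM in PLX5622 libraries 1 to 3, against 278, 187 and 236 TPM in control libraries 1 to 3, a difference of -0.40 ± 0.15 (SE). Chchd1, a small subunit protein, had 84.9, 103 and 90.1 TPM in PLX5622 libraries 1 to 3, against 128, 85.3 and 119 TPM in control libraries 1 to 3, a difference of -0.24 ± 0.17 (SE). The diets did not overlap in Aurkaip1 and overlapped in Chchd1, and corrected for length the differences were -0.24 and 0.12. The 13 translation factors had a median of 0.14 with 8 positive. Tufm, the mitochondrial elongation factor, averaged 153 ± 10.1 TPM on PLX5622 and 139 ± 6.91 TPM on the control diet (SD, n = 3 each), and Oxa1l, which inserts new chains into the inner membrane, 51.3 ± 0.91 TPM on PLX5622 and 57.4 ± 7.15 TPM on the control diet (SD, n = 3 each). The 25 assembly and rRNA modification genes had a median of 0.072, and its highest genes by TPM, Mpv17l2 and Ngrn, had differences of -0.061 and 0.089. The 17 transcription and RNA handling genes had a median of 0.070. Hsd17b10, a subunit of mitochondrial RNase P, averaged 199 ± 11.1 TPM on PLX5622 and 230.5 ± 39.1 TPM on the control diet (SD, n = 3 each), a difference of -0.20 ± 0.14 (SE), which was 0.044 after the length correction. Slirp, which binds mitochondrial mRNAs, had 101, 113 and 97.4 TPM in PLX5622 libraries 1 to 3, against 193, 107 and 151 TPM in control libraries 1 to 3. Its difference of -0.49 ± 0.20 (SE) was the lowest of that list and was -0.047 after the length correction. The 7 tested nuclear regulators had a median of 0.37 with 6 positive, against 8000 of all 13084 genes, and 5 of them lay above all control values, against 19.4% of all genes. Esrra, a nuclear receptor of mitochondrial genes, averaged 76.3 ± 9.89 TPM on PLX5622 and 52.8 ± 17 TPM on the control diet (SD, n = 3 each), a difference of 0.57 ± 0.23 (SE), and Yy1 28.4 ± 1.10 TPM on PLX5622 and 22.4 ± 3.57 TPM on the control diet (SD, n = 3 each), a difference of 0.34 ± 0.14 (SE). The genes of the factors whose motifs were searched are added here. Gabpa, part of the GABP factor, had 17.8, 20.3 and 20.1 TPM in PLX5622 libraries 1 to 3, against 6.21, 15.7 and 10.8 TPM in control libraries 1 to 3, a difference of 0.85 ± 0.26 (SE). Gabpb1, the other GABP gene of the list, had 2.64, 3.08 and 2.57 TPM in PLX5622 libraries 1 to 3. In control libraries 1 to 3 it had 2.38, 3.26 and 2.85 TPM. Its difference was -0.020 ± 0.14 (SE), and -0.25 after the length correction. Nrf1 had 8.03, 8.02 and 8.05 TPM in PLX5622 libraries 1 to 3, against 4.47, 7.71 and 5.64 TPM in control libraries 1 to 3, a difference of 0.41 ± 0.18 (SE). The regulators are long genes (median relative length 1.85), and after the length correction their median was 0.14, with 0.53 for Esrra, 0.12 for Yy1, 0.63 for Gabpa and 0.18 for Nrf1. No gene of these lists was called with all 6 libraries. Leaving out single controls moved the uncorrected median of the regulators, to 0.25 without control 1 and to 0.45 without control 2. Without control 3 and PLX5622 3 the medians were -0.16 for the proteins under other names, 0.088 for the translation factors, 0.11 for the assembly genes, 0.039 for the RNA handling genes and 0.33 for the regulators. Corrected for length, the median was -0.21 for the proteins under other names and -0.0054 for the translation factors, with 6 of 13 positive. It was then 0.052 for the assembly genes and -0.015 for the RNA handling genes. Mitochondrially encoded mRNAs were not analysed here.

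The 81 tested cytosolic ribosomal protein genes had a median of -0.49 with 80 negative, and the 85 tested respiratory chain subunits a median of -0.38 with 78 negative. The 78 members, at -0.21, lay between these and all genes at 0.089. Median relative length was 0.259 for the cytosolic ribosomal proteins, 0.250 for the respiratory chain subunits and 0.369 for the members. Corrected for length, the medians were -0.17, -0.067 and -0.053 in the same order. Without control 3 and PLX5622 3, and with no correction, they were -0.42, -0.35 and -0.16. Leaving out single controls moved them too, to -0.25, -0.21 and -0.14 without control 1 and to -0.77, -0.54 and -0.32 without control 2. No difference between these lists was tested.

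**Figure D5:**
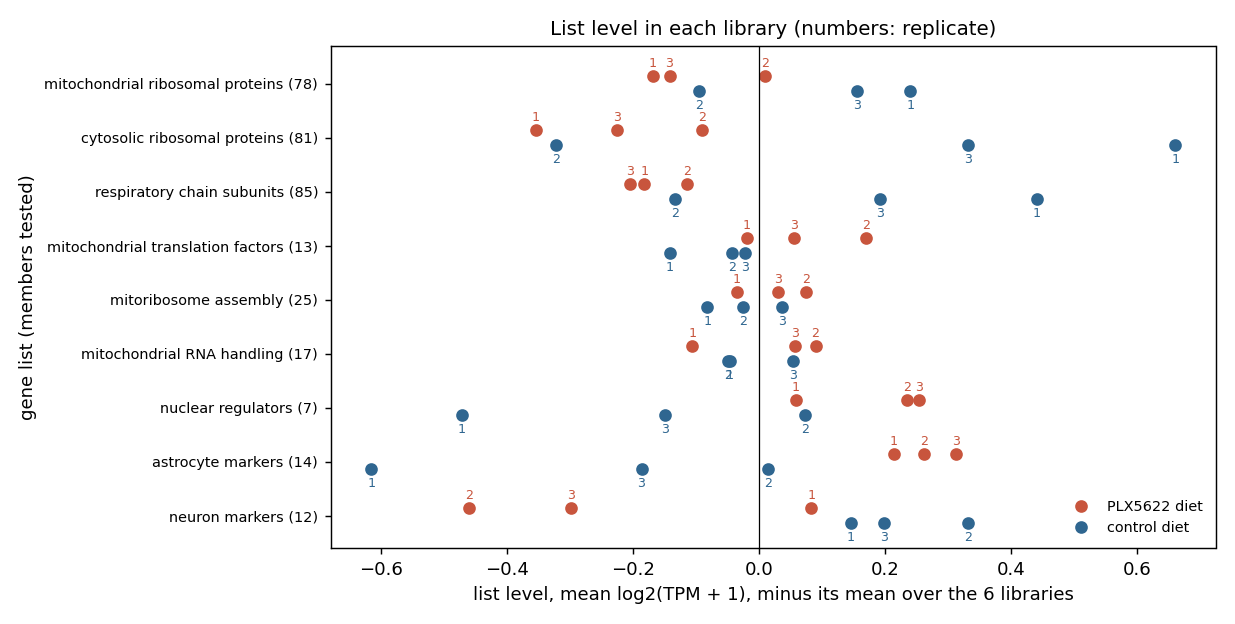
Mean log2(TPM + 1) of each list's tested members in each library, minus the list's mean over the 6 libraries, with PLX5622 (red) above control (blue) in each row and replicate numbers beside the points. Control 1 and control 3 are at the right in the 3 upper rows and control 2 near the PLX5622 libraries.

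Markers of cell types were set beside the members. The 14 astrocyte markers were positive in 14 of 14 genes, with a median of 0.50, and 11 of 12 neuron markers were negative, with a median of -0.53. With control 3 and PLX5622 3 left out these medians were 0.56 and -0.47. Microglia markers summed to 28.6 to 56.4 TPM in PLX5622 libraries and 37.0 to 139 TPM in control libraries, with Cx3cr1, C1qb, C1qc and Ctss at 0 in PLX5622 2. The 6 oligodendrocyte precursor markers summed to 721 to 767 TPM in PLX5622 libraries and 562 to 791 TPM in control libraries, and the 5 mural markers to 29.2 to 49.2 TPM in PLX5622 libraries and 36.3 to 50.9 TPM in control libraries. The 6 endothelial markers summed to 5.53 to 6.99 TPM in PLX5622 libraries and 7.18 to 7.95 TPM in control libraries. The 6 ependymal and choroid markers summed to 109 to 347 TPM in PLX5622 libraries and 153 to 439 TPM in control libraries. The part of these cells in the result was not tested. Of the members, 28 overlap a gene on the opposite strand in exons in the GENCODE M21 annotation, 21 of them by at least 100 bases, and Mrps11 and Mrpl46 overlap each other by 173 bases. The 45 members free of overlap had a median of -0.23 and those with overlap of -0.18. Pseudogene copies are annotated for Mrpl23, Mrpl27, Mrpl48 and Mrps36, so their values are uncertain.

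The authors' deposited table, made with DESeq2 and naming no numerator, gave the 78 members a median log2 fold change of -0.093, against -0.017 over all 20062 genes. Its member values ran from -0.34 (Mrpl23) to 0.13, 57 negative and 21 positive, against 53.7% negative over all genes. Its smallest member p was 0.321, and 0 members passed at 0.05 adjusted (0.0698% of all genes) or unadjusted (0.847%). In the same table the 11 tested microglia markers were all negative, with a median of -3.37. By label, the 78 members had a median of -0.21. The table rests on the same libraries, so it is no separate support.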

How the data were processed

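Ribosome-bound mRNA of 6 mouse brain libraries, 3 per diet, was analysed. TPM values were deposited by the authors and hold no read depth, so no counting interval is given. The build mm39, STAR 2.7.10a, Subread 2.0.1 with featureCounts, R 4.1.0 and DESeq2 1.32.0 are listed in the submitters' processing notes. The annotation is not given in the sources used here. The authors' deposited comparison holds, per the file headers, baseMean (a signal, the mean of normalized counts), log2 fold changes, a score (the test statistic) and p-values.

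Groups and replicate numbers come from the titles. limma 3.58.1 in R 4.3.3 tested log2(TPM + 1) with a mean-variance trend, on the genes whose mean reached 1 TPM; tests were two-sided, p-values were adjusted after Benjamini-Hochberg, and 0.05 was the threshold. A difference on this scale understates that of low genes. Relative length was the deposited baseMean over mean TPM, and the loess span was 0.3. On simulated data for the comparison of diets with 13084 genes, 200 of them changed, the step recovered 71.0% of changes of 1 and 97.0% of changes of 2 on the log2 scale, with 6 and 5 false calls, and made 0 calls with none changed. Named members were the 6 with the smallest p in each direction, the 5 highest and 5 lowest by TPM and a set of structural genes; from each other list the 2 highest by TPM were taken, and Gabpa, Nrf1 and any further gene were picked with their values known. The members and lists were chosen with earlier results of these data known.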

Additional observations from a re-analysis of the deposited data

How the results depend on the processing

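With pseudocounts of 0.1 and 0.5, other filters on low values or no variance trend, every count of members stayed within 1.5 times and no named member changed sign. The labels do not say what libraries of the same replicate number share. The r of deviations was -0.033, -0.272 and -0.147 for numbers 1 to 3. It cannot decide on pairing, since deviations from a mean of 3 libraries depend on each other. With the replicate block 0 genes and 0 members were called and the median was -0.21. At an unadjusted p under 0.05, 11 members were then lower, and the share of all genes was not taken for this setting. With median-ratio size factors, which moved the median of all genes from 0.089 to 0.011, 1 member lay above all controls, and Mrps14 (-0.0082), Mrpl1 (-0.021) and Mrpl19 (-0.026) changed sign. The share of all genes above all controls was not taken with size factors. With the length correction 5 members were lower and 1 higher at an unadjusted p under 0.05, the median was -0.053, 8 members lay below and 5 above all controls, and Mrpl1 (-0.13), Mrpl19 (-0.17), Mrpl42 (0.18), Mrpl13 (0.12), Mrpl27 (0.069), Mrps18a (0.095) and Mrps18b (0.00088) changed sign. Without control 3 and PLX5622 3, 14 genes were called, 0 members were lower at an unadjusted p under 0.05, 4 lay above all controls and Mrpl45 was at 0.043. Leaving out 1 library at a time gave 0 to 3754 genes called, 0 to 30 members called, 2 to 44 lower and 0 to 2 higher members at an unadjusted p under 0.05, medians of -0.32 to -0.14, 18 to 56 members below and 2 to 3 above all controls. Over these, Mrps2 ran from -0.0029 to 0.18, Mrpl1 from -0.0093 to 0.17, Mrpl19 from -0.026 to 0.11 and Mrpl45 from -0.078 to 0.031. The cause of these shifts was not tested. TPM values carry no depth, so what depth limits is unknown, and no change under 1 on the log2 scale was simulated.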
